A study of Mus musculus with 4 samples.

Results

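The core replication-dependent histone genes encode the H2A, H2B, H3 and H4 proteins around which DNA is wrapped in the nucleosome. Members were the genes of the deposited table whose GENCODE M21 symbol begins with Hist1h, Hist2h, Hist3h or Hist4h followed by 2a, 2b, 3 or 4, and 47 of the 20065 genes in the table met this rule. The annotation holds 64 such genes, so 17 were not in the table under their M21 identifiers and are not analysed here. Of the identifiers in the table, 19782 are in M21, and whether some of the 17 stand under older identifiers was not tested. Of the 47 members, 13 belonged to H2A, 16 to H2B, 5 to H3 and 13 to H4. These genes are copied many times in clusters and are transcribed when DNA is replicated, so that new histones are made together with new DNA. Their mRNAs usually end in a short hairpin in place of a poly(A) tail. The protein SLBP binds this hairpin, and the mRNAs are rapidly removed when replication stops. Libraries made from total RNA after ribosomal RNA depletion, as used here, keep mRNAs that lack a poly(A) tail.

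RNA-seq was done on cultured satellite cells, the muscle stem cells (MuSC) of limb and trunk muscles of adult C57BL/6 mice, with 2 control and 2 Prmt5sKO libraries. Control cells carried Pax7CreERT2 and 1 floxed Prmt5 allele (Prmt5+/loxP), and Prmt5sKO cells carried Pax7CreERT2 and 2 floxed alleles (Prmt5loxP/loxP). Both groups were treated with hydroxytamoxifen in culture, which is where Prmt5 was deleted. The controls thus shared Cre, a floxed allele and the treatment, although the labels call them wild type. Cre was expressed from the Pax7 locus, which is active in MuSC, and Prmt5 encodes an arginine methyltransferase that modifies histones and other proteins. The comparison asks which RNA levels differ in MuSC after loss of Prmt5.

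Whole reads per library were recovered from the deposited group means, and as no column names a replicate, the 2 libraries of each group are called deeper and shallower. Library totals ranged from 13240754 to 20047430 reads. Values are normalized counts (reads scaled by trimmed means of M-values, TMM) and are given for the deeper and then the shallower library of a group. Prmt5 had 2273 and 2906 normalized counts in control and 243.8 and 202.1 in Prmt5sKO, as labelled. The shallower Prmt5sKO library stood apart in genes of differentiating muscle. Acta1, which encodes skeletal muscle actin, had 60230 normalized counts there against 1001 to 4951 in the other 3 libraries. Xist and Y-linked genes divided the libraries across the groups. Xist had 8668 normalized counts in the deeper control and 5655 in the shallower Prmt5sKO library, against 23.3 in the shallower control and 8.15 in the deeper Prmt5sKO library, in which Ddx3y was at 787.2 and 1176. Gm42418, a transcript annotated as lincRNA, took 4.12% and 11.4% of the control reads and 1.12% and 1.67% of the Prmt5sKO reads. What part these differences have in the results was not tested, and values without each library are given where they alter a result.

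The hairpin was searched in the annotated transcripts because it is the feature by which histone mRNAs are processed and because it divides the classes. A hairpin of 16 bases, with a perfect stem of 6 base pairs and a loop of 4 bases, was looked for in the first 200 bases after the stop codon. It was found in 32 of the 47 members, starting 21 to 54 bases after the stop codon (median 31). For 10 members the transcript model ends at or within a few bases of the stop codon and cannot show it, 1 member is a pseudogene without a coding transcript, and in 4 members (Hist1h2bc, Hist1h2bq, Hist1h2br and Hist2h2be) no such hairpin was found. The most common form occurred in 27 of 21951 protein-coding genes (0.123%), of which 23 were annotated core histone genes. The following hairpins come from GENCODE M21 transcripts (GRCm38) and are written 5′ to 3′ with the stem in capitals, the loop and 5 bases on each side in lower case.
Hist1h2ab (H2A, chr13:23751572-23751587, plus strand): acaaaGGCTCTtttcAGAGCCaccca
Hist1h2bg (H2B, chr13:23571843-23571858, plus strand): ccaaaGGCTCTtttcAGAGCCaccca
Hist1h3c (H3, chr13:23745047-23745062, minus strand): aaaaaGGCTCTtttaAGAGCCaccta
Hist2h2ac (H2A, chr3:96220418-96220433, minus strand): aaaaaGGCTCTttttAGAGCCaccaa
Hist1h4d (H4, chr13:23581950-23581965, plus strand): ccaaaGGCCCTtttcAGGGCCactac
Hist1h4j (H4, chr13:21735437-21735452, plus strand): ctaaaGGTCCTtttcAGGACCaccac
The stem separated H4 from the other classes. All 20 H2A, H2B and H3 members with a hairpin had the stem GGCTCT, whereas 10 H4 members had GGCCCT and 2 had GGTCCT. The loop was less fixed, with forms such as tttc, ttta and tttt.

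For 38 of 44 tested members, RNA levels in both Prmt5sKO libraries lay below those in both controls, and the median log2 fold change of the tested members was -1.61. Over all 16212 genes tested, 23.6% had both Prmt5sKO libraries below both control libraries, and the median log2 fold change was 0.02. Together the 47 members had 56352 and 72932 normalized counts in control against 20212 and 19696 in Prmt5sKO. The mean sum was 64642 ± 11724 (SD, n = 2) for control libraries against 19954 ± 365 (SD, n = 2) for Prmt5sKO libraries, a ratio of 3.24. Both Prmt5sKO sums lay below both control sums, and an exact permutation test of the log2 sums (two-sided) gave p = 0.333, the smallest that 2 libraries against 2 allow. As shares of all reads, the members took 0.345% and 0.425% in control against 0.136% and 0.121% in Prmt5sKO. In bulk RNA, fewer cells in S phase and less histone RNA per cell cannot be told apart.

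Single members did not pass the test. In limma-voom, with p-values adjusted by Benjamini-Hochberg for all genes tested, 0 of 44 members reached the thresholds of the study, an adjusted p no higher than 0.05 with a 2-fold or greater difference (background 0%), and the smallest adjusted p of a member was 0.198. Prmt5 itself did not pass in this fit (log2 fold change -3.52, adjusted p = 0.193, the smallest of all genes). The paper used DESeq2 and reports genes that passed, among them genes of cell cycle control and replication. The 0 calls of limma-voom therefore do not stand for the outcome of the paper's own test. At an unadjusted p under 0.05, 36 members were lower, against a background of 6.95%. The estimate was a decrease of at least 2-fold for 37 members, against a background of 9.05%. Hist2h2be was the single member with both Prmt5sKO libraries above both control libraries, against a background of 25.2%. The number of calls depended on the libraries that entered and on their pairing. A replicate block pairing the deeper libraries called 0 members, and a crossed block, chosen after the data were seen, called 24 members among 346 genes. The crossed block pairs the libraries that are alike in Xist and Ddx3y, so it coincides with the sex of the animals. Without the deeper Prmt5sKO library 19 members were called among 489 genes, without the shallower Prmt5sKO library 8 members among 55 genes, and without either control library 0 members and 0 genes. The median log2 fold change of the members was -1.69 without the deeper and -1.58 without the shallower Prmt5sKO library, and -1.82 and -1.56 without the deeper and the shallower control library.

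**Figure D1:**
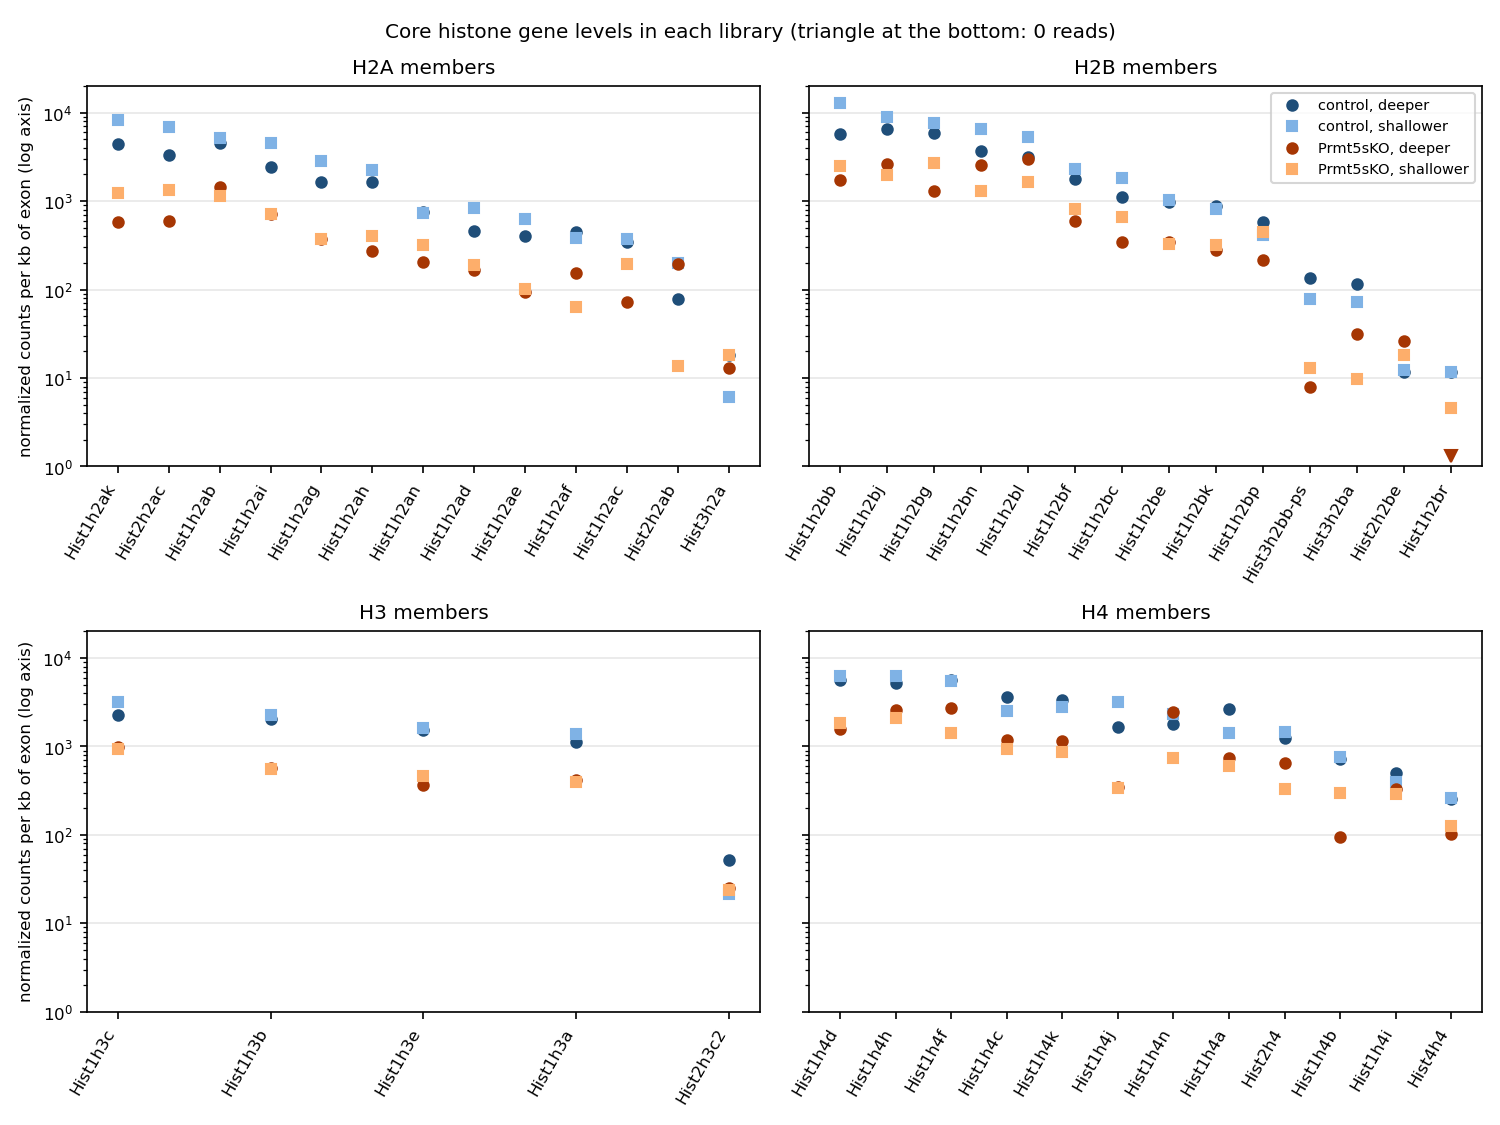
Normalized counts per kb of exon (log axis) of the 44 tested members in each of the 4 libraries, 1 panel per histone class, ordered by the control mean; circles are the deeper and squares the shallower library of a group, and the triangle marks a library with 0 reads. For 38 members both Prmt5sKO points (red and orange) lie below both control points (blue).

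H2A had the lowest median of the 4 classes. H2A pairs with H2B and lies at the outside of the nucleosome. The median log2 fold change of the 13 members, all tested, was -2.01, and 11 were lower in both Prmt5sKO libraries. Hist1h2ak had the highest control level per kb (6287 normalized counts per kb of exon) and also the largest estimated decrease of the class. It had 1727 and 3215 normalized counts in control against 225.2 and 487.8 in Prmt5sKO, with no overlap between the groups (log2 fold change -2.87, standard error 0.46, adjusted p = 0.203). Hist2h2ac had 1744 and 3548 in control and 313.4 and 695.9 in Prmt5sKO, and Hist1h2ab 2161 and 2451 against 675 and 533. The levels of Hist1h2ak and Hist2h2ac differed about as much between the control libraries as between the Prmt5sKO libraries, whereas those of Hist1h2ab were close within each group. Hist1h2ah, with 667.9 and 909.1 in control and 111.1 and 163.9 in Prmt5sKO, was estimated at -2.55 on the log2 scale (standard error 0.34, adjusted p = 0.198). The smallest estimate in Hist1 was that of Hist1h2an, at -1.57, with 299.5 and 285.3 in control against 80.02 and 126.7 in Prmt5sKO. The groups overlapped for 2 H2A genes of low level. Hist2h2ab had 35.03 and 89.48 in control and 86.69 and 6.034 in Prmt5sKO. Its log2 fold change was -1.02 (standard error 1.20), and 0.65 without the shallower Prmt5sKO library. Hist3h2a had 39.55 and 12.97 in control and 28.15 and 39.22 in Prmt5sKO (log2 fold change 0.46, standard error 0.74), and -0.27 without the shallower control library.

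H2B genes held the members with the highest levels per kb of annotated exon. Of 14 tested members, 12 were lower in both Prmt5sKO libraries and the median log2 fold change was -1.59. Hist1h2bb had the highest control level per kb of any member (9270), from 2888 and 6530 normalized counts, against 872.8 and 1258 in Prmt5sKO. This rank depends on the length of the gene models. The model held 508 bases for Hist1h2bb and 1138 for Hist1h4d, which had a higher control mean (6815 against 4709 normalized counts). Hist1h2bj had 3053 and 4175 in control and 1203 and 921.2 in Prmt5sKO, and Hist1h2bg 3650 and 4661 against 798.7 and 1650. The log2 fold changes of these 3 genes were -2.06 (standard error 0.42), -1.76 (0.26) and -1.85 (0.37), with adjusted p between 0.198 and 0.232. The largest estimates of the class belonged to genes with few reads. Hist1h2br had 23 and 20 reads in control and 0 and 10 in Prmt5sKO, so its log2 estimate of -3.97 (standard error 1.51) rests on few counts, and it was -1.33 without the deeper and -6.16 without the shallower Prmt5sKO library. The pseudogene Hist3h2bb-ps had 63.28 and 36.31 normalized counts in control and 3.705 and 6.034 in Prmt5sKO. Its neighbour Hist3h2ba had 71.19 and 44.09 in control and 19.26 and 6.034 in Prmt5sKO. Estimates nearer to 0 were those of Hist1h2bl, with 1207 and 2005 in control and 1138 and 632.6 in Prmt5sKO (log2 fold change -0.86, and from -1.29 to -0.45 without 1 library), and of Hist1h2bp. The groups overlapped for Hist1h2bp, with 406.8 and 293.1 in control and 153.4 and 311.8 in Prmt5sKO (log2 fold change -0.72, standard error 0.41, and -0.16 without the deeper Prmt5sKO library). Hist2h2be differed in direction. It had 30.51 and 32.42 in control and 68.16 and 48.27 in Prmt5sKO, and its estimate of 0.88 on the log2 scale (standard error 0.55, adjusted p = 0.515) stayed within 2 standard errors of 0.

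The H3 class was measured by few genes. H3 and H4 form the tetramer at the core of the nucleosome. Of the 12 annotated H3 genes of the rule, 5 were in the table, and 5 of the 7 others carry gene identifiers with numbers above the highest one in the table. All 5 were tested, 4 were lower in both Prmt5sKO libraries, and the median log2 fold change was -1.61. Hist1h3c had 1434 and 1989 normalized counts in control and 618.7 and 596.4 in Prmt5sKO (log2 fold change -1.47, standard error 0.24). Hist1h3b had 1283 and 1393 against 349.7 and 343.9, and Hist1h3e 1298 and 1368 against 306.7 and 387.2. The libraries of a group were close for these genes, and the log2 fold changes were -1.94 and -1.96. Hist2h3c2 was low in every library, at 53.11 and 22.05 in control and 25.93 and 24.14 in Prmt5sKO, and its groups overlapped. Its log2 estimate of -0.48 (standard error 0.67) became 0.16 without the deeper control library.

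H4 was the class with the most complete set of genes, as all 13 annotated H4 genes of the rule were in the table. Of 12 tested members, 11 were lower in both Prmt5sKO libraries, and the class median was -1.50 on the log2 scale. Hist1h4d had the most normalized counts of any member, 6419 and 7211 in control and 1777 and 2102 in Prmt5sKO (log2 fold change -1.82, standard error 0.21, adjusted p = 0.198). Hist1h4h had 2479 and 2978 against 1220 and 991.6, and Hist1h4f 2199 and 2158 against 1065 and 554.1. Control libraries were close for these 3 genes and lay above both Prmt5sKO libraries. The largest estimates were -2.73 for Hist1h4j, with 1278 and 2494 in control and 269.7 and 265.5 in Prmt5sKO, and -2.23 for Hist1h4b, with 288.2 and 303.5 in control against 37.79 and 117.7 in Prmt5sKO. The estimate for Hist1h4b was -1.32 without the deeper and -2.96 without the shallower Prmt5sKO library, so its place among the largest rests on the deeper one. A gene model on the other strand, 4930558J22Rik, overlaps 56.2% of the Hist1h4b exon. Of the 75-base windows of Hist1h4b transcripts, 26% were absent from every other gene's transcripts. Hist1h4i had the estimate nearest to 0, -0.54 (standard error 0.29), with 363.9 and 291.8 in control and 238.6 and 209.2 in Prmt5sKO. Hist1h4n overlapped between groups, as the deeper Prmt5sKO library had 1052 normalized counts and the shallower 320.8, against 779.8 and 990.8 in control. Its log2 fold change was -0.55 (standard error 0.54) and became 0.26 without the shallower Prmt5sKO library. Under the filter of a mean normalized count of 5 were Hist1h4m, with 0 and 0 reads in control and 1 and 4 in Prmt5sKO, and the H2B genes Hist1h2ba, with 3 and 3 against 2 and 0 reads, and Hist1h2bq, with 7 and 3 against 0 and 3 reads.

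The order of levels among members was largely kept. Across the 44 tested members, log2 levels per kb correlated with Pearson's r of 0.98 between the control libraries, 0.91 between the Prmt5sKO libraries and 0.90 to 0.95 between libraries of different groups. These are descriptions across genes that share sequence, and reads with several positions were left out of the counts. Shares of a class sum per kb, like the ranks per kb, depend on the annotated exon lengths. The 3 genes with the highest control level per kb made up 59.9% and 61.1% of the H2A sum per kb in control and 53.5% and 60.8% in Prmt5sKO. For H2B the share was 59.3% and 61.5% in control and 43.1% and 56.2% in Prmt5sKO, for H3 83.3% and 83.4% against 81.2% and 82.4%, and for H4 51.2% and 54.6% against 49.4% and 54.2%.

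Classes were compared by the log2 ratio of their summed normalized counts within each library. H2A summed to 12856 ± 4023 (SD, n = 2) for control libraries against 2792 ± 574 (SD, n = 2) for Prmt5sKO libraries, a ratio of 4.60. The corresponding ratios were 3.08 for H2B, 3.30 for H3 and 2.90 for H4. H2A relative to H2B was at -0.98 and -0.86 on the log2 scale in control and at -1.66 and -1.34 in Prmt5sKO, so both Prmt5sKO libraries lay below both control libraries, with a difference of -0.58. H2A relative to H3 was at 1.10 and 1.51 in control and at 0.65 and 1.03 in Prmt5sKO, a difference of -0.47 without overlap. H2A relative to H4 overlapped, with a difference of -0.64. The differences of the other 3 pairs were 0.12 for H2B over H3, -0.05 for H2B over H4 and -0.17 for H3 over H4, and their groups overlapped. In exact permutation tests (two-sided), p was 0.333 for the first 2 pairs and 0.667 for the other 4, and the adjusted p was 0.667 for all 6 pairs. A difference between classes was therefore not shown with 2 libraries per group. Exons of all 13 H2A members overlap a gene model on the other strand, such as Gm44454 at Hist1h2ak. Those of Hist3h2a and Hist1h2ac also overlap Trim17 and Gm24991 on the same strand. Whether the counting used strand is not given in the sources used here.

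**Figure D2:**
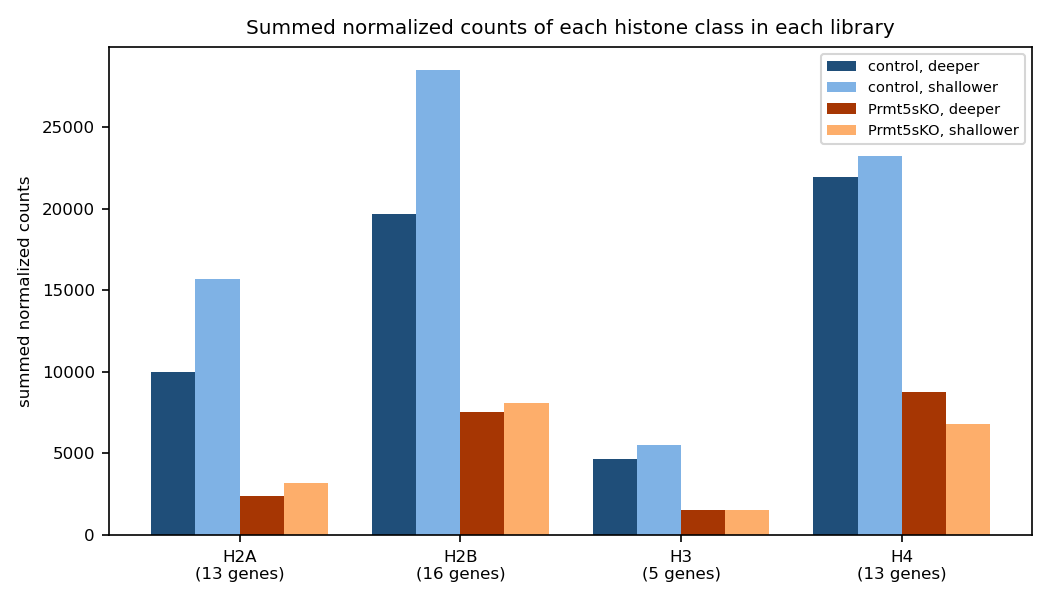
Summed normalized counts of each class in each library, with bars from 0 and the number of genes summed under each class. In every class both Prmt5sKO bars are lower than both control bars, and H2A has a control over Prmt5sKO ratio of 4.60 against 2.90 to 3.30 for the others.

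The clusters were compared in the same way. Hist1 lies on chromosome 13, Hist2 on chromosome 3, Hist3 on chromosome 11 and Hist4 on chromosome 6. In Hist1, 33 of 35 tested members were lower in both Prmt5sKO libraries and all 35 had a log2 fold change below 0, with a median of -1.66. Outside Hist1, 5 of 9 were lower in both, with a median of -1.20. The ratio of the control to the Prmt5sKO mean sum was 3.24 for Hist1 and 3.22 for the other clusters. The log2 ratio of Hist1 to the others was 3.43 and 3.26 in control and 3.27 and 3.38 in Prmt5sKO, with a difference of -0.02 (exact permutation test, two-sided, p = 1). The members outside Hist1 were thus divided between abundant and rare genes. Hist2h2ac, described above, and Hist2h4, with 2006 and 2351 in control and 1057 and 542.1 in Prmt5sKO, carried most of their reads. Hist4h4 had 727.8 and 748.3 in control and 291.9 and 359 in Prmt5sKO (log2 fold change -1.20, standard error 0.24). Hist2h2ab, Hist2h2be, Hist2h3c2 and the Hist3 genes had at most 89.48 normalized counts in any library.

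Within Hist1, core histone genes separated by more than 100000 bases were treated as different groups, which gave 3 groups with tested members. The group at chr13:23531050-23762386 held 20 tested members of all 4 classes. All 20 were lower in both Prmt5sKO libraries, with log2 fold changes from -2.35 to -1.30 and a median of -1.72. In the group at chr13:21715763-21837530, 8 of 10 were lower in both, with a wider range from -3.97 to -0.55 and a median of -1.59. All 5 tested members at chr13:22035164-22043676 were lower in both, from -2.55 to -0.54, with a median of -1.76. The 4 H3 members of Hist1 were all in the group of 20.

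**Figure D3:**
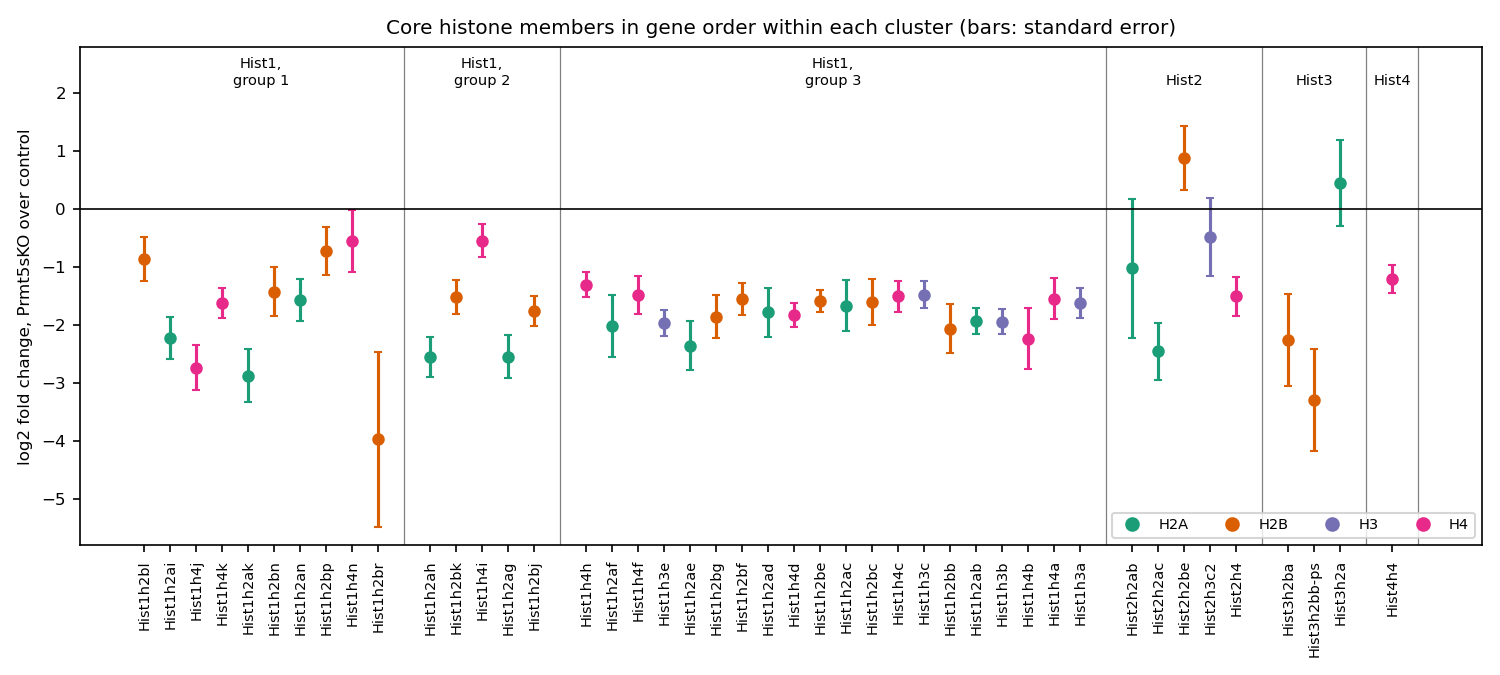
Log2 fold changes (Prmt5sKO over control, limma-voom) with standard errors of the 44 tested members in their order along each cluster, coloured by class; Hist1 is divided at gaps of more than 100000 bases. The 20 members of the third Hist1 group lie between -2.35 and -1.30, and Hist2h2be and Hist3h2a lie above 0.

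H2A and H2B genes often face each other across a short interval that serves as promoter for both, so each pair gives 2 readings of neighbouring genes. Both genes were tested for 10 such pairs, with 172 to 301 bases between the annotated starts. In all 8 pairs of Hist1 both log2 fold changes were below 0 and the H2A gene had the lower one, by 0.06 to 1.46, where the standard error of a single gene was between 0.26 and 0.46. In these pairs another gene model overlapped the H2A exons, from 9.91% for Hist1h2ac to 35.9% for Hist1h2an, and none overlapped the H2B exons. Many genes of the pairs also share sequence with other copies, and the part of either limit in this order was not tested. Without the deeper control or the deeper Prmt5sKO library the H2A gene was lower in 7 of 8 pairs, and without either of the other libraries in 8, 1 of them by a gap that rounded to 0 without the shallower control. The closest pair was Hist1h2ac and Hist1h2bc, at -1.66 and -1.60, was the one that turned, to -1.73 and -1.97 without the deeper control and to -0.89 and -1.10 without the deeper Prmt5sKO library. Hist1h2ac had 849.8 and 929.9 normalized counts in control and 179.3 and 479.7 in Prmt5sKO, and Hist1h2bc 1283 and 2113 against 397.9 and 766.3. The groups did not overlap for either gene. The pairs outside Hist1 diverged. Hist2h2ac was at -2.45 (standard error 0.49) and Hist2h2be, across 238 bases, at 0.88 (standard error 0.55), and Hist3h2bb-ps was at -3.29 (0.88) and Hist3h2a at 0.46 (0.74). The control level per kb was 5088 for Hist2h2ac and 12.01 for Hist2h2be.

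**Figure D4:**
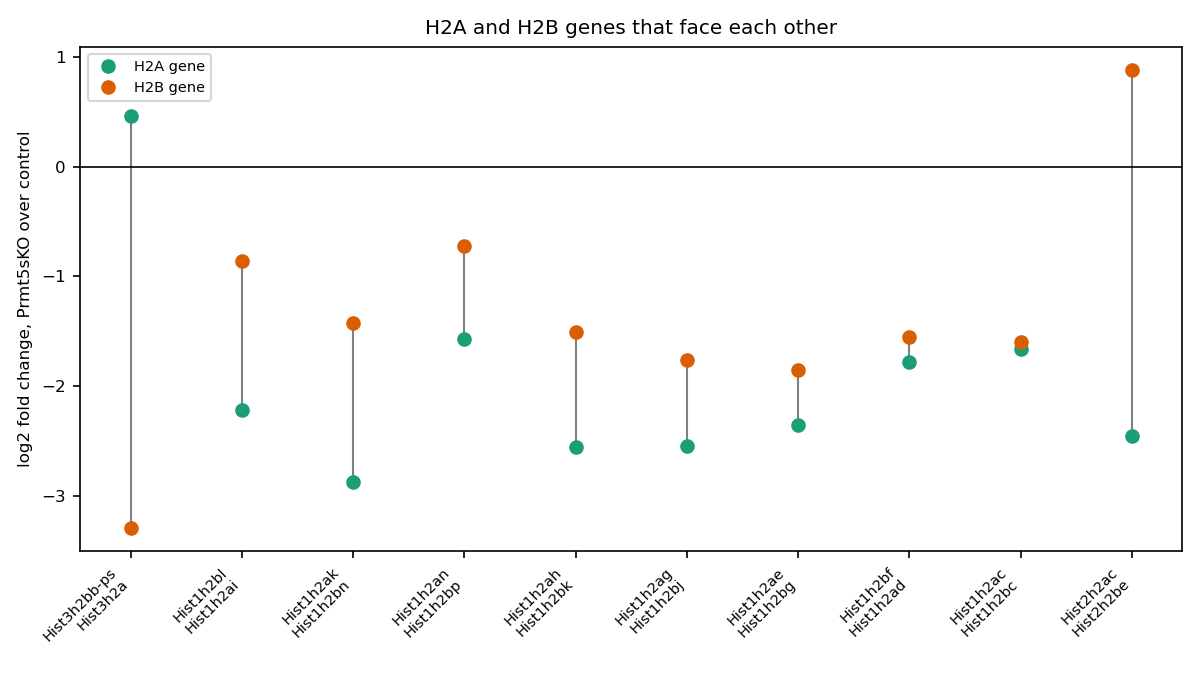
Log2 fold changes (Prmt5sKO over control) of the H2A and the H2B gene of 10 facing pairs, joined by a line, with the names of both genes below. In the 8 Hist1 pairs both points lie below 0 with H2A lower, while the Hist3 and Hist2 pairs at the ends span 0.

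Promoter sequence was compared because most members were lower together while the classes differ in their motifs. RefSeq sequence of the 250 bases before the start (GRCm38.p6) was found for 42 of the 47 members. The motif CCAAT, on either strand, was in all 13 H2A, all 13 H2B, 3 of 4 H3 and 3 of 12 H4 promoters, against 33.8% of all 32851 promoters in the table. The octamer ATTTGCAT was in 6 of 13 H2A and 5 of 13 H2B promoters and in 0 of 4 H3 and 0 of 12 H4 promoters, against 1.60% of all. Windows of facing H2A and H2B genes overlap, such as chr13:22042950-22043199 for Hist1h2ag and chr13:22042948-22043197 for Hist1h2bj. Matches in the H2A and H2B promoters are therefore in large part the same bases and not separate counts. TATAAA was in 21 of 42, against 12.4% of all. For E2F sites only the exact sequence TTTCCCGC was searched, and it was in 1 of 42, against 0.895%. Variant forms of the E2F site were not searched, so this count does not show how many promoters hold such a site. None of these motifs contains another. Tested members with CCAAT had a median log2 fold change of -1.80 (30 members) and those without it -1.30 (9 members), a split that largely follows the H4 class. With the octamer the median was -1.89 (10 members) and without it -1.57 (29 members). As 0 of 4 H3 and 0 of 12 H4 promoters held the octamer, this split also follows the classes. The sequences below show the interval between one of the pairs that diverged, that of Hist2h2ac, the interval between the closest pair, and the promoters of the most abundant H4 gene and of the H4 gene with the largest estimated decrease. They run 5′ to 3′ toward the start of the named gene, with matches to the 4 motifs on either strand in capitals.
Hist2h2ac, to the start of Hist2h2be (chr3:96220881-96221118, minus strand): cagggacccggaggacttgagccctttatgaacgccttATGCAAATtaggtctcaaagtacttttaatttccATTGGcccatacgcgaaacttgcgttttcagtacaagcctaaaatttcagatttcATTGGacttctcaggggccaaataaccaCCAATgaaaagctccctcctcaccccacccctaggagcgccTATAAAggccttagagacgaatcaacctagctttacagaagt
Hist1h2ac, to the start of Hist1h2bc (chr13:23683960-23684198, minus strand): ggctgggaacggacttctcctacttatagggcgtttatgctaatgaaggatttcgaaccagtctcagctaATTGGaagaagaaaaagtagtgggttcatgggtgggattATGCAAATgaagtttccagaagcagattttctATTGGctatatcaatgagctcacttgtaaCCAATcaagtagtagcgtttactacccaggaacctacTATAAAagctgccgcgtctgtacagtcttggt
Hist1h4d (chr13:23581318-23581567, plus strand): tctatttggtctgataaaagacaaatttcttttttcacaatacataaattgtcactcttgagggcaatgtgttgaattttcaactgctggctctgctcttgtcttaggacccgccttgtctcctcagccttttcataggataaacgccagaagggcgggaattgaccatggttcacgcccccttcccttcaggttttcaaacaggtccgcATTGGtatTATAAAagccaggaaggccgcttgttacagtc
Hist1h4j (chr13:21734784-21735033, plus strand): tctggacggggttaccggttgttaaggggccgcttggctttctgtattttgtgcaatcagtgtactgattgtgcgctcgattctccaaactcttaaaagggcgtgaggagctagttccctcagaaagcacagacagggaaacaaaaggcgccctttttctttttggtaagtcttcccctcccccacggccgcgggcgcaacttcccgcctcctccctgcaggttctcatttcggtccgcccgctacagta
The Hist2h2ac and Hist1h2ac intervals each hold 3 matches to CCAAT, 1 to the octamer and 1 to TATAAA, while the estimate of Hist2h2be was above 0 and that of Hist1h2bc below. The Hist1h4d window holds 1 CCAAT and 1 TATAAA, and the Hist1h4j window holds none of the 4. Both windows end at the RefSeq start, which lies before the GENCODE start (23581598 for Hist1h4d and 21735064 for Hist1h4j). The bases between the 2 starts were not searched, so a motif there would be missed.

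Near-identical copies limit how far reads can be assigned to single genes. For 20 of the 44 tested members, under 50% of the 75-base windows of their transcripts were absent from every other gene's transcripts, and the counting left reads with several positions unassigned. The 24 members with at least 50% own windows centred on a log2 fold change of -1.59 (median), with 21 lower in both Prmt5sKO libraries, and the other 20 a median of -1.77, with 17 lower in both. Of the 17 annotated genes that were not in the table, 8 carry identifiers above the highest number in it. Of the other 9, the Hist2 genes Hist2h2aa1, Hist2h2aa2, Hist2h3b and Hist2h3c1 have no window of their own. The 29 tested members whose exons overlap no other gene centred on -1.54, and 25 of them were lower in both.

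Linker histones, which bind DNA between nucleosomes, were lower to a similar degree. Of 8 listed genes 7 were tested, 6 were lower in both Prmt5sKO libraries (background 23.6%), and the median log2 fold change was -1.56. Hist1h1b had 5959 and 9234 normalized counts in control and 1408 and 1966 in Prmt5sKO (log2 fold change -2.16), and Hist1h1d 5563 and 5287 against 1265 and 1655 (-1.91). These are replication-dependent linker genes of the Hist1 cluster. The replication-independent H1f0 and H1fx had the estimates nearest to 0, at -0.40 and -0.72. The log2 ratio of the core histone sum to the linker histone sum was 0.76 and 0.90 in control and 1.05 and 0.40 in Prmt5sKO, with a difference of -0.11.

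Replacement variants come from genes outside the clusters, and many of them are made without regard to replication. The median log2 fold change of the 9 genes, all tested, was -0.76, and 5 were lower in both Prmt5sKO libraries (background 23.6%). H2afx, which marks DNA breaks once phosphorylated, had 2651 and 2659 in control and 728.3 and 1034 in Prmt5sKO (log2 fold change -1.62), and H2afy2, a macroH2A gene, 597.8 and 536.9 against 159.3 and 371.1 (-1.28). The H3.3 genes H3f3b and H3f3a had log2 fold changes of -0.19 and 0.31, with overlapping groups. H3f3b had 5040 and 3530 in control and 3716 and 3701 in Prmt5sKO, and H3f3a 934.6 and 531.7 against 795.7 and 979.5. Relative to the replacement variants, the core histone sum was at 1.88 and 2.49 on the log2 scale in control and at 1.14 and 1.00 in Prmt5sKO, a difference of -1.12 without overlap.

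Genes that act in S phase were lower as well. All 32 were tested, 31 were lower in both Prmt5sKO libraries (background 23.6%), and the median log2 fold change was -1.20. Cdt1 and Cdc6, which license replication origins, had the largest estimates. Cdt1 had 647.5 and 944.1 in control and 169.7 and 159.9 in Prmt5sKO (log2 fold change -2.23), and Cdc6 1167 and 1477 against 295.6 and 404.3 (-1.94). Pcna, the replication clamp, had 2592 and 2555 against 2638 and 1377 (-0.43), with overlap, and Rfc3, a subunit of the clamp loader, was at -0.44. The core histone sum relative to the S-phase sum was at -0.44 and -0.33 in control and at -0.87 and -1.13 in Prmt5sKO, a difference of -0.61 without overlap. The 3 ratios of the core histone sum to these lists had p = 0.333 for S-phase genes and replacement variants and p = 1 for linker histones in exact permutation tests (two-sided), and the adjusted p was 0.50, 0.50 and 1. The 8 mitosis genes had a median of -0.97 and were all lower in both (background 23.6%). Aurkb was at -1.39, Mki67 at -1.32, Bub1 at -0.55 and Ccnb1 at -0.42.

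Genes for the synthesis and processing of histone mRNA had a median nearer to 0 than that of the core histone members. Of 17 tested, 11 were lower in both Prmt5sKO libraries (background 23.6%) and 1 was higher in both (background 25.2%). The median log2 fold change was -0.41, near the lower quartile of all genes tested (-0.4). Upf1, a helicase that takes part in histone mRNA decay, had 1506 and 2683 in control and 503.1 and 671.8 in Prmt5sKO (log2 fold change -1.80, standard error 0.34). Casp8ap2 was at -0.83, while Sympk, a scaffold of the cleavage complex, and Lsm10, a subunit of the U7 particle, were at -0.13 and 0.02. Slbp, named here after its values were seen because its protein binds the hairpin shown above, had 836.3 and 932.5 in control and 598.7 and 516.9 in Prmt5sKO (-0.66, standard error 0.22), and the groups did not overlap. Among 20 histone chaperone and assembly genes, 15 were lower in both (background 23.6%) and the median was -0.54. Chaf1b and Chaf1a, subunits of the CAF-1 complex that deposits new histones behind the replication fork, were at -1.91 and -1.83, with 971.9 and 1140 against 258.6 and 308.7 for Chaf1b. Cabin1 and Daxx, which act with the replacement variant H3.3, were at -0.04 and 0.01. In limma-voom 0 genes of these lists passed the adjusted p threshold, as did 0 of all genes, of which 2101 had an unadjusted p under 0.05. The smallest adjusted p in the lists was 0.198.

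**Figure D5:**
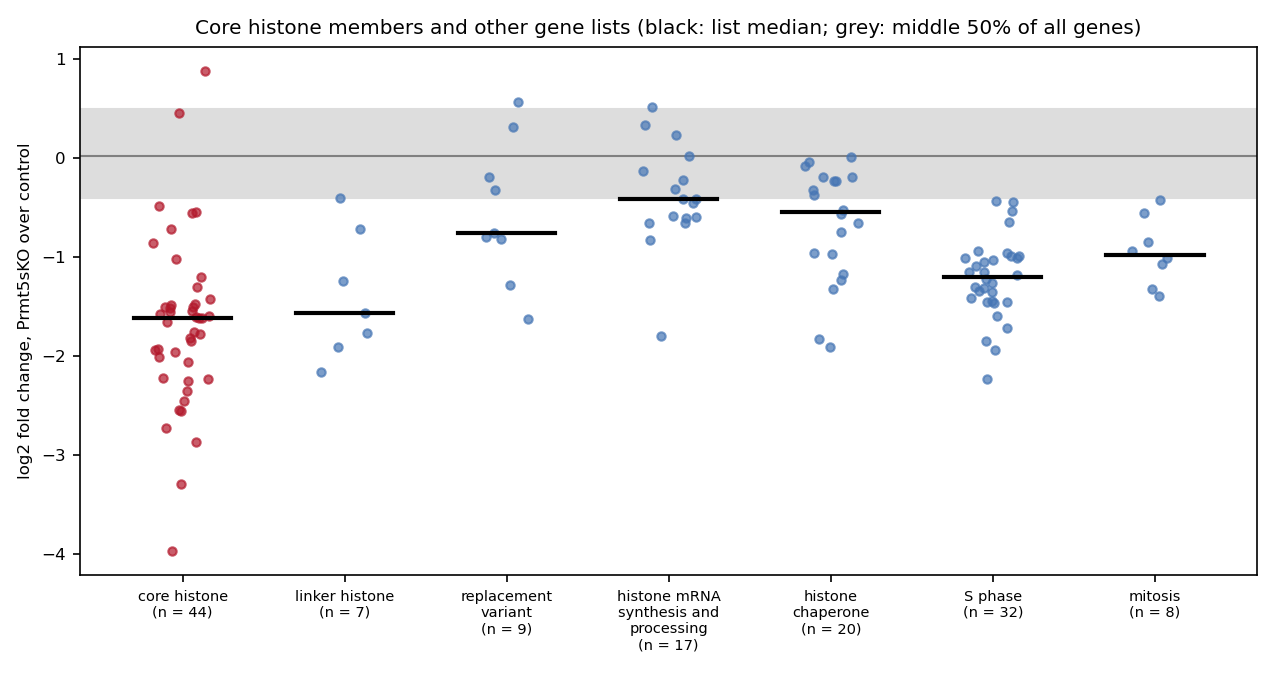
Log2 fold changes (Prmt5sKO over control) of the tested genes of each list, with a black line at the list median; the grey band spans the middle 50% of all genes tested and the grey line their median. The medians are -1.61 for core histone members, -1.56 for linker histones, -1.20 for S-phase genes and -0.41 for genes of histone mRNA synthesis and processing.

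Markers of cell identity were read beside these genes. The 8 satellite cell genes centred on a log2 fold change of 0.04 (median). Among them were Myod1 and Pax7 (3079 and 3002 in control and 3664 and 2570 in Prmt5sKO). In both Prmt5sKO libraries 1 was lower (background 23.6%) and 1 higher (background 25.2%). The 9 measured genes of differentiating muscle had a median of 2.87 and 7 were higher in both (background 25.2%). They summed to 9789 and 5889 normalized counts in control against 16180 and 217500 in Prmt5sKO, so the Prmt5sKO libraries differed widely here, whereas the core histone sums of the same libraries were 20212 and 19696. The summed markers of other cell types stayed low, at 56.3 to 163 normalized counts for 4 endothelial genes, 65.9 to 126 for 3 blood cell genes and 161 to 391 for 4 fibroblast genes. Of 3 tested endothelial genes, Kdr and Pecam1 were lower in both Prmt5sKO libraries, the latter with 40.68 and 62.25 in control and 27.41 and 10.06 in Prmt5sKO. Tek was higher in both, with 13.56 and 27.23 in control against 42.97 and 29.17 in Prmt5sKO. Endothelial Cdh5 had 0 reads in 1 library and Itgam of myeloid cells 0 in another. The part of these cells in the results was not tested.

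The spread between libraries of a group varied among the classes. The median size of the log2 difference between the 2 libraries of a group was 0.40 in control and 0.47 in Prmt5sKO over the 44 tested members, against 0.32 and 0.38 over 13612 genes with at least the level of the lowest tested member. It was largest for H2A in control (0.79), where 10 of 13 members were lower in the deeper library, and for H2B in Prmt5sKO (0.74). For H3 it was 0.29 in control and 0.07 in Prmt5sKO. Libraries of a group were at least 2-fold apart for 5 members in control and 11 in Prmt5sKO.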

How the data were processed

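RNA from cultured MuSC (2 control and 2 Prmt5sKO libraries, Ion Torrent Proton) was sequenced after depletion of ribosomal RNA. The authors trimmed reads with Reaper, aligned them with STAR 2.4.0a to GRCm38, counted them per gene, leaving out reads that overlapped several genes or mapped to several positions, and analysed them with DESeq2 (given as 1.62 in the submitters' processing notes). As deposited, the signal of a gene is a mean, made by the authors for each group, of counts divided by size factors. The deposited log2 fold changes with their standard errors and the deposited p-value columns hold the authors' own comparison and were not used.

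Since each group mean is a sum of 2 scaled whole counts, the reads of both libraries could be solved for in 100% of 20065 genes, a procedure checked on simulated data. TMM factors came from own code (trims of 30% and 5%). Genes whose normalized counts averaged 5 or more were compared with limma-voom (limma 3.58.1, R 4.3.3) and Benjamini-Hochberg adjustment, with the thresholds of the study (adjusted p of at most 0.05, fold change of at least 2). Levels per kb used the union of GENCODE M21 exons, which held 19782 of the gene identifiers. Sums and their ratios were compared with exact permutation tests over libraries. The labels do not say which animals or cultures the libraries came from. The libraries of each group differ in Xist and Y-linked RNA, so they do not share a single animal of origin, and p-values measure the spread between these samples, the sex of the animals included. Thinning the libraries to the smallest total gave a median member log2 fold change of -1.67 against -1.61, and whether depth matters more for members with few reads was not tested.

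The labels number the replicates but the columns do not, so the pairing is unknown. Members and lists were chosen with earlier results of these data known. Members named are, in each class, the 3 with the highest control level per kb, the 2 largest and 2 smallest decreases, those whose groups overlap or reverse, and all outside Hist1. From each other list the 2 largest and 2 smallest changes are named, and any other gene named was chosen after its values were seen. Protein and genome sequence were not used here.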

Additional observations from a re-analysis of the deposited data

How the results depend on the processing

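Scaling by the authors' size factors, library size or upper quartiles, other filters on low values, limma-trend, thinning to the smallest total and leaving out Lars2 and ribosomal-type RNA kept 0 members called and a median member log2 fold change between -1.67 and -1.50. Library size alone, which moved the median of all genes to 0.13, gave -1.50 and 37 members lower in both Prmt5sKO libraries. Leaving out Gm42418 and Gm26917 as well, chosen after the data were seen, gave -1.61. A replicate block pairing the deeper libraries gave 0 genes and 0 members called. Differences within groups correlated at -0.30 across 11487 genes under this pairing and at 0.30 under the crossed one, which pairs the libraries alike in Xist and Ddx3y. The crossed replicate block, also added later, called 346 genes and 24 members. Leaving out 1 library at a time gave 0 to 489 genes and 0 to 19 members called, and a member median from -1.82 to -1.56. With fewer members counted by construction, 21 were lower in both among those with at least 50% own windows, an alternative based on transcripts because the planned one on genome sequence was not run, and 25 among those whose exons overlap no other gene. No H2A member was left in the latter. Of 434 log2 fold changes of named members under the alternatives, 430 kept their sign. The other 4 belonged to members with overlapping groups, when 1 library was left out: the ranges were -3.08 to 0.65 for Hist2h2ab, -0.27 to 1.27 for Hist3h2a, -1.06 to 0.16 for Hist2h3c2 and -1.45 to 0.26 for Hist1h4n, and the cause was not tested. A single library left in a group was assumed to vary like the other group. With 2 libraries per group, no permutation test of a sum or ratio can reach an adjusted p of 0.05.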
